A study of Homo sapiens with 20 samples.

Results

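HIF1A peaks that were called in normoxia and were still called in hypoxia were examined in 4 human cancer cell lines. A normoxia peak was a member when it overlapped a hypoxia peak of the same line by at least 1 bp, and it is called kept below. There were 355 such peaks among 4032 normoxia peaks (8.8%). A549 had 175 of 526 (33.3%), RKO 98 of 2092 (4.68%), H460 45 of 1127 (3.99%) and HCT116 37 of 287 (12.9%). The members were chosen by the normoxia and hypoxia peak calls of their own line, so their number, their level and their change with hypoxia are described and not tested.

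HCT116 is a colorectal carcinoma line, RKO a colon carcinoma line, A549 a lung adenocarcinoma line and H460 a line from a large cell carcinoma of the lung. Cultures stayed in normoxia or were placed at 1% O2 (hypoxia) for 24 h, and chromatin was recovered with an antibody against HIF1A in 2 replicates of each line and condition. Because the authors called peaks on pooled replicates, each line gave 1 normoxia and 1 hypoxia list, read against 1 input library (genomic DNA without immunoprecipitation) that both lists of the line share. The merged libraries held 41.2 M to 81.5 M tags (1 M is 1000000), and the input labels differ among themselves: the description fields of the RKO and A549 inputs each name the other line and the source fields of the RKO, A549 and H460 inputs name HCT116, while titles and cell line fields name their own line. Levels are the authors' normalized tag counts, given here as tags per 10 M (10 M sequenced tags), and coordinates are in GRCh37.

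The oxygen-labile subunit of the heterodimeric transcription factor HIF-1 is HIF1A. In oxygenated cells prolyl hydroxylases mark it for degradation through the VHL ubiquitin ligase, and in hypoxia it accumulates, pairs with ARNT and binds hypoxia response elements (HREs). The core of an HRE reads ACGTG or GCGTG, written RCGTG, and the factor is known for activating glycolysis, pH control, angiogenesis and the hydroxylases that act on HIF itself.

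The sequences at the loci that recur between lines are shown first, because they carry the shared element, followed by members without it. All are plus-strand GRCh37 reference sequence, and capitals mark RCGTG on either strand or, in LPIN1, the AP-1 motif TGANTCA. FAM174B (chr15:93352370-93352519) and ANKRD37 (chr4:186317665-186317694) were kept in 4 lines, NARF (chr17:80416064-80416093) and PNRC1 (chr6:89791512-89791541) in 3 lines, and SLC16A3 (chr17:80188917-80189066), ENO1 (chr1:8939137-8939166) and LPIN1 (chr2:11884368-11884517) in 2 lines. The RKO peak upstream of B3GALT4 (chr6:33244833-33244862) held neither motif in the bases shown.
FAM174B: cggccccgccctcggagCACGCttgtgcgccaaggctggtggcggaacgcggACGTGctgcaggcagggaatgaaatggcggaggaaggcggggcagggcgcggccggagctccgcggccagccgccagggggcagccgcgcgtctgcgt
ANKRD37: ctccagtcctctCACGCccactgacttacc
NARF: tccgccgagcctACGTGacacgacgtcaag
PNRC1: tcagcgcgcgctACGTGcccggcgctccgg
SLC16A3: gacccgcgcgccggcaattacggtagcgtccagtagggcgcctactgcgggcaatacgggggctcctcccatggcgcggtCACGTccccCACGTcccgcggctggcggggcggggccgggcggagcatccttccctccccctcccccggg
ENO1: gctctggggcccCACGTccggccctcgacc
LPIN1: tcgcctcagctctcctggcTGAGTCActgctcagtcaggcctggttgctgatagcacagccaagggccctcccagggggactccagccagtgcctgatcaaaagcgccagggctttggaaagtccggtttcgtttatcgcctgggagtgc
B3GALT4: gccctgccgcgctgctccgacgccgcttcc

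Most kept loci belonged to a single line. The 355 peaks joined into 328 loci, of which 307 were kept in 1 line, 17 in 2 lines, 2 in 3 lines and 2 in all 4. Of the loci kept in a line, 15 in A549, 13 in H460, 11 in RKO and 9 in HCT116 were kept in another line as well. Among all normoxia peaks, kept or not, 5.23%, 0.813%, 3.8% and 1.42% of the HCT116, RKO, A549 and H460 lists overlapped a normoxia peak of another line. The lung lines A549 and H460 shared 10 kept loci and the colon lines HCT116 and RKO shared 6, while each mixed pair shared 4 to 6 (6 for RKO and A549, 5 for HCT116 and A549, 4 for H460 with either colon line).

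The locus in an intron of FAM174B, a gene of a membrane protein, was the strongest H460 member and among the 3 strongest of HCT116 and A549. In A549 it had 75.4 tags per 10 M in normoxia and 130.3 in hypoxia, in H460 24.4 and 91.2, in HCT116 32.1 and 70.4, and in RKO 30.8 and 71.3. All 4 lines were thus higher in hypoxia, and the lowest hypoxia level among the lines lay below the normoxia level of A549. On the log2 scale hypoxia exceeded normoxia by 0.79 in A549 (95% interval 0.59 to 0.99), 1.90 in H460 (1.62 to 2.2), 1.13 in HCT116 (0.91 to 1.36) and 1.21 in RKO (0.93 to 1.49). These intervals, and those below, cover the counting error of 2 merged libraries only.

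ANKRD37, which codes for an ankyrin repeat protein and is a known HIF1A target, held the other locus kept in 4 lines, in an intron 458 to 475 bp downstream of its start. Normoxia and hypoxia levels were 19.6 and 47.9 in A549, 13.5 and 63.1 in H460, 19.7 and 62.9 in HCT116, and 15.7 and 62.6 in RKO. Normoxia and hypoxia levels did not overlap between lines at this locus, which held 3 RCGTG in every line's window.

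The loci kept in 3 lines lay in NARF, whose product binds prenylated prelamin A, and in PNRC1, a nuclear receptor coactivator gene. At NARF the normoxia and hypoxia levels were 28.2 and 82.5 in HCT116, 21.5 and 53.8 in RKO, and 85.8 and 156.8 in A549. A549 was the highest of the 3 in both conditions, and H460 had a hypoxia call there but no kept peak. At PNRC1 the levels were 8.24 and 42.9 in HCT116, 15.8 and 51.5 in A549, and 5.63 and 54.6 in H460. RKO had no kept peak there, and its hypoxia level was lower, at 30.

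Some loci kept in 2 lines were higher in hypoxia in both lines and others were not. SLC16A3, which codes for the lactate exporter MCT4, had 42.4 tags per 10 M in normoxia and 208.5 in hypoxia in A549, and 6.38 and 118.7 in H460. An intron of VGLL4, a cofactor of TEAD factors, went from 22.5 to 57.3 in A549 and from 5.99 to 27.8 in RKO, and an intron of the lncRNA gene ENSG00000234026 from 19.9 to 34.1 in A549 and from 13.9 to 60.5 in H460. ENO1, the glycolytic enolase, went from 12.9 to 72.2 in A549 and from 3.57 to 96.4 in H460.

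In contrast, the locus at IER3-AS1, beside the immediate early gene IER3, had 37.5 in normoxia and 30.3 in hypoxia in HCT116 and 5.99 and 6.88 in RKO. The HCT116 decrease did not hold per base pair of peak width, with a log2 ratio of -0.31 as deposited and 0.053 per base pair. The intron of LPIN1, which codes for a phosphatidate phosphatase, had 7.76 and 7.47 in RKO and 6.38 and 14.6 in H460. Both LPIN1 windows held 1 TGANTCA and no RCGTG. NFE2L2, which codes for the oxidative stress regulator NRF2, was kept in both colon lines, at 4.34 and 7.60 in HCT116 and at 5.99 and 7.32 in RKO.

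**Figure D1:**
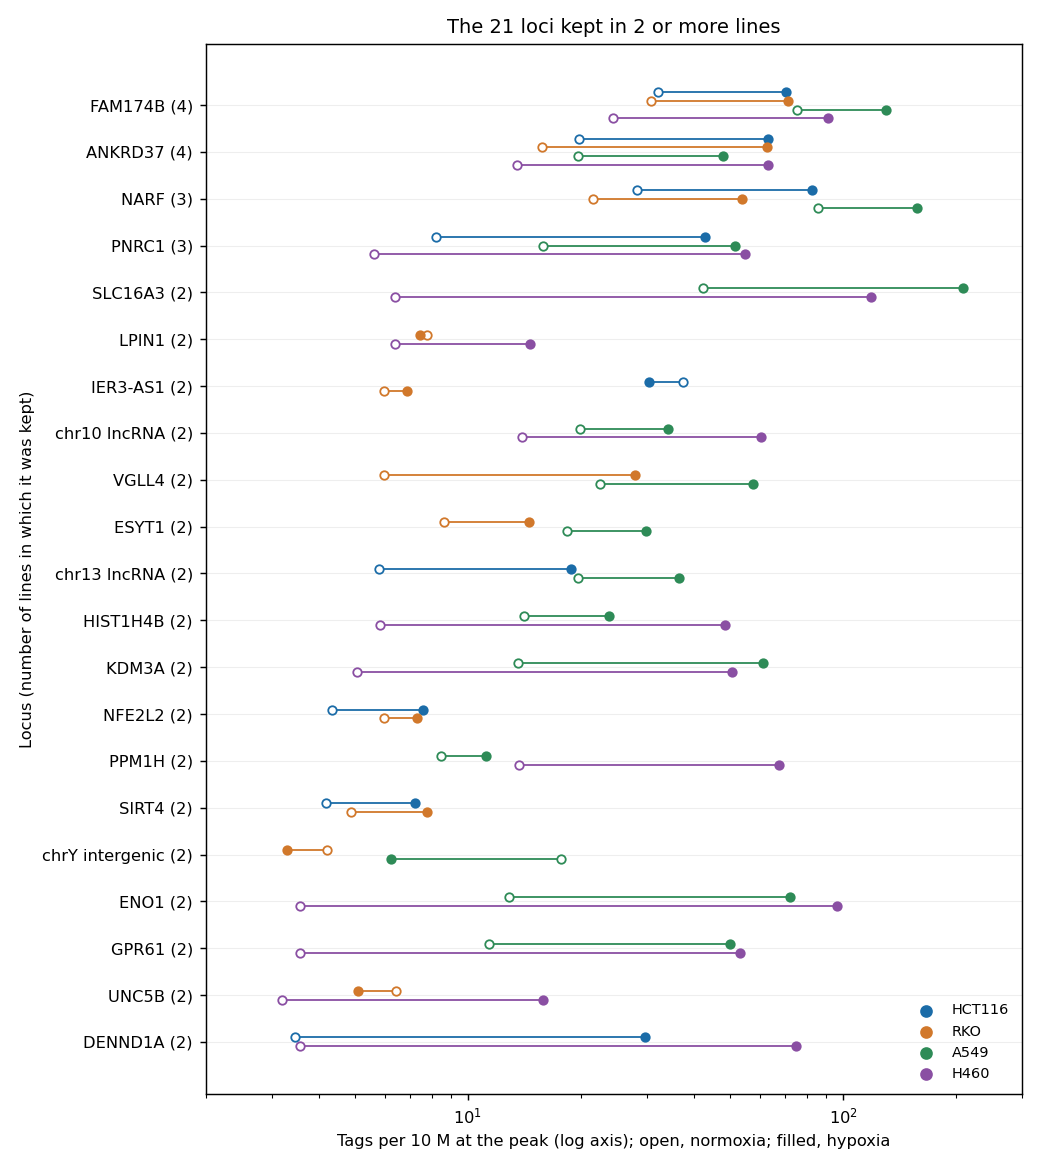
Tags per 10 M (log axis) in normoxia (open circles) and hypoxia (filled circles) at the 21 loci kept in 2 or more lines, 1 row per locus and 1 colour per line, with the number of lines in parentheses. The lines run to the right at most loci, while IER3-AS1 in HCT116, LPIN1 and UNC5B in RKO and the intergenic chromosome Y locus in both its lines run to the left. Levels are not scaled for peak width.

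Hypoxia levels exceeded normoxia levels at 307 of the 355 kept peaks, were lower at 46 and equal at 2. In HCT116 the kept peaks ran from 3.33 to 37.5 tags per 10 M in normoxia, with a median of 4.19, and from 2.45 to 82.5 in hypoxia, with a median of 7.73. In RKO the medians were 4.88 and 6.58, with ranges of 2.88 to 62.5 and 2.99 to 71.3. In A549 the medians were 6.30 and 16.1, with ranges of 3.39 to 85.8 and 3.22 to 208.5. In H460 the medians were 3.57 and 15.2, with ranges of 2.44 to 24.4 and 3.24 to 118.7. Lower levels in hypoxia were found at 26 RKO, 13 A549, 7 HCT116 and 0 H460 kept peaks, and a hypoxia level over 4-fold higher was seen at 3, 38, 7 and 20 in the same order. A typical kept peak rested on few tags, with a median of 19 to 29 normoxia tags by line.

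Peak widths were fixed by list and differed between conditions, with 118 bp in normoxia and 146 bp in hypoxia for H460, 144 and 140 bp for A549, 136 and 160 bp for RKO, and 190 and 148 bp for HCT116. The RKO difference did not hold per base pair: its median log2 ratio was 0.22 as deposited and -0.019 per base pair, with 48 of 98 peaks higher. In HCT116 the median was 0.79 as deposited and 1.15 per base pair, in A549 1.27 and 1.31, and in H460 1.64 and 1.34. Per base pair, 35 of 37 HCT116, 163 of 175 A549 and 43 of 45 H460 peaks were higher in hypoxia.

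**Figure D2:**
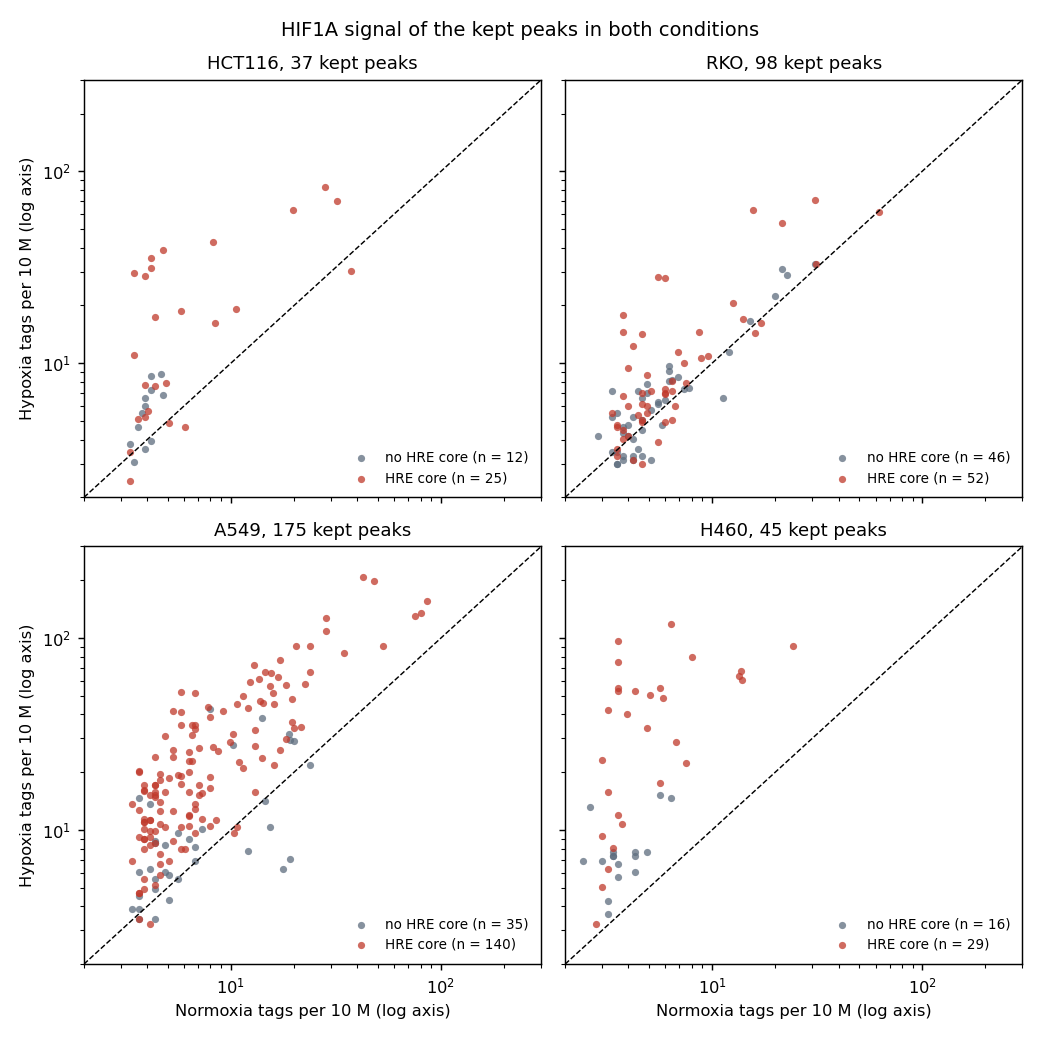
Normoxia (x axis) and hypoxia (y axis) tags per 10 M of every kept peak on log axes, 1 panel per line, with red points for peaks that hold an HRE core in the 200 bp at the normoxia centre, grey points for peaks without it and a dashed line of equal levels. All 45 H460 peaks sit above the line, while RKO peaks scatter about it.

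The strongest normoxia members differed in their hypoxia levels. In A549 NARF and FAM174B were among the 3 strongest. In H460 FAM174B was followed by the ENSG00000234026 intron and by an intron of PPM1H, a protein phosphatase gene, with 13.7 and 67.3. In RKO both of the strongest members showed nearly equal levels: an intergenic peak downstream of CCDC85B had 62.5 and 61.4, and a peak in the UTR of RGS4, a regulator of G protein signalling, had 31.3 and 32.9. Their log2 ratios were -0.03 (95% interval -0.25 to 0.20) and 0.07 (-0.24 to 0.39). The 10 strongest normoxia peaks of HCT116 and of RKO were all kept, and of A549 and H460 it was 7 and 8 of 10.

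The members with the highest ratios lay below, at or above the normoxia median of their line. In HCT116 these were upstream of DENND1A, a Rab exchange factor gene (3.47 and 29.6), and in AK4, which codes for a mitochondrial adenylate kinase (4.19 and 35.2). RKO had an intron of ZNF292 (5.54 and 28.0) and an intergenic peak at chr1:242113921-242114057 (3.77 and 17.8), A549 an intergenic peak at chr16:80061193-80061337 (5.82 and 52.6) and the start of TOP3A, a topoisomerase gene (5.33 and 41.9), and H460 ENO1 and DENND1A (3.57 and 75). The H460 ENO1 peak had the largest log2 ratio of the kept peaks, 4.76 (95% interval 4.10 to 5.50), from 19 normoxia tags and 477 hypoxia tags.

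The lowest ratios were found at peaks that no HIF target list holds. RKO had 11.3 tags per 10 M in normoxia and 6.58 in hypoxia just upstream of B3GALT4, a galactosyltransferase gene (log2 ratio -0.78, 95% interval -1.40 to -0.17), and 5.10 and 3.14 in the histone gene H2BC5. HCT116 had 3.33 and 2.45 at RHBDD1 and 6.07 and 4.66 at chr16:15051562-15051752, with intervals that included 0. The lowest ratios of H460 were above 0 as deposited, at chr15:22540188-22540306 (3.19 and 3.64) and in an intron of ATE1 (2.81 and 3.24). Per base pair of peak width, 43 of 45 H460 kept peaks were higher in hypoxia.

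The lowest ratios of A549 were at a pair of intergenic peaks on chromosome Y, with 17.7 and 6.23 (log2 ratio -1.51) and 19.2 and 7.09 (-1.44). Of all kept peaks, 5 had a fold over the surrounding 10000 bp above 100 in normoxia, and 4 of these lay on chromosome Y (3 in A549, 1 in RKO) while the other lay near GTF2IRD2 in A549. The next highest such fold was 62.3. None of the 4 held RCGTG or a mapped input tag. Without chromosome Y and such folds 350 members and 20 recurrent loci remained, and the median log2 ratio was 0.23 in RKO and 1.29 in A549.

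MIR210, a microRNA known to respond to hypoxia and singled out after its values were seen, had a kept peak in HCT116 417 bp away, near the start of MIR210HG, with 4.77 in normoxia and 39.1 in hypoxia. Joining kept peaks with centres within 10 kb of each other gave 316 clusters, of which 27 held kept peaks of 2 or more lines.

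Among the listed HIF target genes, most kept peaks were in A549. A kept peak lay within 2500 bp of the start of 16 of 62 listed targets, compared with 0.7% of 20136 protein-coding genes. This list was chosen with earlier results of these data known, so its count is a description. Of the 62 targets 15 had a kept peak in A549, 3 in H460 and 0 in HCT116 and RKO, although 34, 35, 31 and 28 had a hypoxia peak in these lines. For comparison, 82, 20, 15 and 51 protein-coding genes had a kept peak in A549, H460, HCT116 and RKO. Of the 16 targets, 12 had a hypoxia peak in all 4 lines. Among all 62 listed targets, 43 had a hypoxia peak in any line and 21 in all 4. The list leaves out ANKRD37, a known target kept in all 4 lines. The counts of 0 in HCT116 and RKO therefore hold for the listed genes only.

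The glucose uptake, glycolysis and lactate list had 7 of 23 genes with a kept peak, all in A549. GPI, the phosphoglucose isomerase, had the highest level with 48.0 in normoxia and 199.1 in hypoxia, followed by PGAM1 (phosphoglycerate mutase, 28.4 and 126.7), ALDOA (aldolase, 23.8 and 91.3) and LDHA (lactate dehydrogenase, 20.4 and 90.8). ENO1, GAPDH (10.2 and 31.8) and PKM (8.73 and 25.8) were lower. Their log2 ratios in A549 ran from 1.56 at PKM to 2.48 at ENO1. SLC16A3 is in this list but is not in the count, since its kept peak lay 13181 bp from the annotated start in A549.

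Oxygen sensing was represented by 2 of 12 genes. EGLN1, the prolyl hydroxylase PHD2 that acts on HIF1A, had 14.3 and 46.0 in A549, and the histone demethylase KDM3A had 13.6 and 61.2 in A549 and 5.07 and 50.5 in H460. The mitochondria and cell death list had 3 of 6 genes, namely the mitophagy receptors BNIP3 (12.4 and 59.3) and BNIP3L (28.4 and 108.7) and the MYC antagonist MXI1 (3.64 and 20.4), all in A549. DDIT4, which inhibits mTORC1, had 13.1 and 33.3 in A549, and the circadian repressor BHLHE40 had 3.19 and 42.1 in H460, giving 2 of 7 in the growth and stress list. The carbonic anhydrase CA9 (6.79 and 51.5) and the collagen prolyl hydroxylase P4HA1 (15.5 and 65.5) were the single kept genes of the pH list (1 of 2) and the matrix list (1 of 6), both in A549. None of the 6 secreted and angiogenic genes had a kept peak, although a hypoxia peak lay near 4 of them. Of 20 immediate early genes 1 had a kept peak within 2500 bp of its start, IER3, in HCT116 and RKO. An RKO kept peak in the UTR of JUN, also on that list, had 6.21 and 9.12. It is not in the count, since it lay 2981 bp from the start. Each named target of the HIF lists had at least 1 RCGTG in its window and a higher level in hypoxia. Most A549 kept peaks within 2500 bp of any gene start shared these traits: of 74, 67 held RCGTG and 70 were higher in hypoxia.

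The regions that were called in hypoxia in all 4 lines were more often occupied by a kept peak in A549. Of 232 such regions, 43 held a kept peak in A549 (18.5%), 12 in RKO (5.17%), 12 in H460 (5.17%) and 9 in HCT116 (3.88%), and 57 in any line. Among all hypoxia peaks the share that held a kept peak was 3.24% in A549, 1.07% in RKO, 1.16% in H460 and 0.926% in HCT116.

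It was next asked how kept peaks differ from peaks called in normoxia only, in features the overlap rule did not use. By rule every kept peak is also a hypoxia peak of its line, and no normoxia-only peak is. These comparisons therefore cannot separate being kept from being called in hypoxia. Kept peaks held the HRE core more often in each line. RCGTG was present in 25 of 37 HCT116, 52 of 98 RKO, 140 of 175 A549 and 29 of 45 H460 kept peaks, while over all normoxia peaks the share was 35.9%, 17.5%, 42.8% and 14.9%. Kept minus normoxia-only gave 45.3 percentage points ± 9.90 (SD, n = 4 lines), higher in 4 of 4 lines (exact two-sided sign-flip permutation test, p = 0.125, adjusted p = 0.146 over 7 comparisons). This is the smallest p that 4 lines allow, so no comparison over lines could pass 0.05.

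Several motif readings bear on that difference. In windows 2000 bp away from the kept peaks, 21.6% to 26.0% held RCGTG by line. RCGAG, a control motif with the same CpG and GC content, was found in 35.1%, 38.8%, 36.6% and 28.9% of kept peaks in HCT116, RKO, A549 and H460, and in 26.4%, 12.0%, 17.7% and 7.76% of normoxia-only peaks. Kept windows were richer in GC, at 62.9%, 57.2%, 56.7% and 52.4% against 54.7%, 41.7%, 46.4% and 36.5%, a difference of 12.5 points ± 3.82 (SD, n = 4 lines, higher in 4 of 4, exact sign-flip permutation test, p = 0.125, adjusted p = 0.146). Over 38798 gene start windows of 200 bp, 36.6% held RCGTG and 39.2% held RCGAG. The part of base composition in the RCGTG difference was not tested.

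Over all lines, every hexamer of the core with 1 base before it was more frequent in kept than in normoxia-only peaks. Examples were GGCGTG (12.7% and 4.43%) and CGCGTG (8.73% and 1.20%). In single lines, GGCGTG was lower in HCT116 (10.8% and 12%) and AACGTG in H460 (2.22% and 2.31%). TACGTG and GACGTG, chosen after their values were seen, were more frequent in kept peaks in each line. TACGTG was present in 71 of 175 A549 kept peaks (40.6%) and 13 of 45 in H460 (28.9%), compared with 5 of 37 in HCT116 and 8 of 98 in RKO. Normoxia-only peaks held it in 1.86% to 3.20% by line, and hypoxia-only peaks in 6.03% to 21.5%. GACGTG was present in 39 of 175 A549 (22.3%), 12 of 45 H460 (26.7%), 9 of 37 HCT116 (24.3%) and 12 of 98 RKO kept peaks (12.2%), in 1.11% to 3.70% of normoxia-only peaks and in 6.81% to 22.6% of hypoxia-only peaks. CACGTG, which contains ACGTG, was found in 29 of 355 kept peaks (8.17%) and in 4.89% of gene start windows. Normoxia-only peaks of all lines held it in 2.15% and hypoxia-only peaks in 6.46%. TGANTCA was found in 9 of 37 HCT116, 12 of 98 RKO, 28 of 175 A549 and 5 of 45 H460 kept peaks, against 2.40%, 7.97%, 10.5% and 6.38% of normoxia-only peaks. Hypoxia-only peaks held it in 9.04%, 8.20%, 16.4% and 13.3%, and at the hypoxia centres the kept shares were 16.2%, 10.2%, 17.7% and 13.3%, so the kept and hypoxia-only shares were close in both lung lines.

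Kept peaks also lay near gene starts. Within 2500 bp of a start were 19 of 37 HCT116, 54 of 98 RKO, 74 of 175 A549 and 22 of 45 H460 kept peaks, where all normoxia peaks gave 13.2%, 11.6%, 24.9% and 9.05%. Kept minus normoxia-only was 39.2 points ± 8.96 (SD, n = 4 lines, higher in 4 of 4, exact sign-flip permutation test, p = 0.125, adjusted p = 0.146). By annotation, 131 of the 355 centres lay in introns, 129 between genes, 47 in UTRs, 29 in noncoding exons and 19 in coding exons.

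The hypoxia calls of the other 3 lines overlapped kept peaks more often than normoxia-only peaks. These calls were not used in the choice within a line, but every kept peak is a hypoxia peak of its own line. No normoxia-only peak is, so the comparison cannot separate being kept from being called in hypoxia. In A549 60.6% of kept and 6.27% of normoxia-only peaks overlapped such a call, and the shares were 44.4% and 0.277% in H460, 59.5% and 1.20% in HCT116, and 40.8% and 1.30% in RKO. Over all normoxia peaks it was 24.3% in A549, 2.04% in H460, 8.71% in HCT116 and 3.15% in RKO. The difference was 49.1 points ± 8.70 (SD, n = 4 lines, higher in 4 of 4, exact sign-flip permutation test, p = 0.125, adjusted p = 0.146). Of the 355 kept peaks 76 were called in hypoxia in all 3 other lines and 167 in none. Of the 76, 75 held RCGTG, and the other was the HCT116 peak at TTC21B.

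Input coverage moved with these classes. No input tag was mapped to 5 of 37 HCT116, 15 of 98 RKO and 28 of 175 A549 kept peaks, compared with 28.4%, 21.0% and 28.8% of normoxia-only peaks. In H460 it was 34 of 45 kept peaks (75.6%) and 1079 of 1082 normoxia-only peaks (99.7%). The source field names HCT116 for the RKO, A549 and H460 inputs alike. The part of input coverage in the differences above was not tested.

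Compared with hypoxia-only peaks, the differences were smaller and depended on level. Here the hypoxia peak centres were used on both sides. RCGTG was found in 73.0% of kept and 65.1% of hypoxia-only peaks in HCT116, 54.1% and 30.3% in RKO, 80.0% and 51.5% in A549, but 62.2% and 77.1% in H460. The mean difference was 11.3 points ± 19.6 (SD, n = 4 lines, higher in 3 of 4, exact sign-flip permutation test, p = 0.375, adjusted p = 0.375). Among peaks in the upper part of each list by level, split at its median, the mean was -1.48, and it was 20.1 without H460, 5.61 without A549 and 7.17 without RKO. It was 1.33 with a fold over the surrounding 10000 bp of at least 6 (exact permutation test, p = 0.875) and 7.35 in windows of 100 bp (exact permutation test, p = 0.625).

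Proximity to a start exceeded that of hypoxia-only peaks by 13.9 points ± 15.0 (SD, n = 4 lines, higher in 4 of 4, exact sign-flip permutation test, p = 0.125, adjusted p = 0.146). In H460 the shares were 51.1% and 49.2% by the hypoxia centre, and the kept share was 48.9% by the normoxia centre. The mean difference was 8.69 within 1000 bp and 13.5 with every transcript start (exact permutation test, p = 0.375 in both), 5.30 among peaks above the list median (exact permutation test, p = 0.625) and 6.88 without RKO. The overlap with another line's hypoxia peaks exceeded it by 27.5 points ± 12.2 (SD, n = 4 lines, higher in 4 of 4, exact sign-flip permutation test, p = 0.125, adjusted p = 0.146), and by 14.3 above the median (exact permutation test, p = 0.25). Kept peaks stood high in their hypoxia lists: 16 of 37, 72 of 98, 97 of 175 and 20 of 45 were in the top 10% in HCT116, RKO, A549 and H460.

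**Figure D3:**
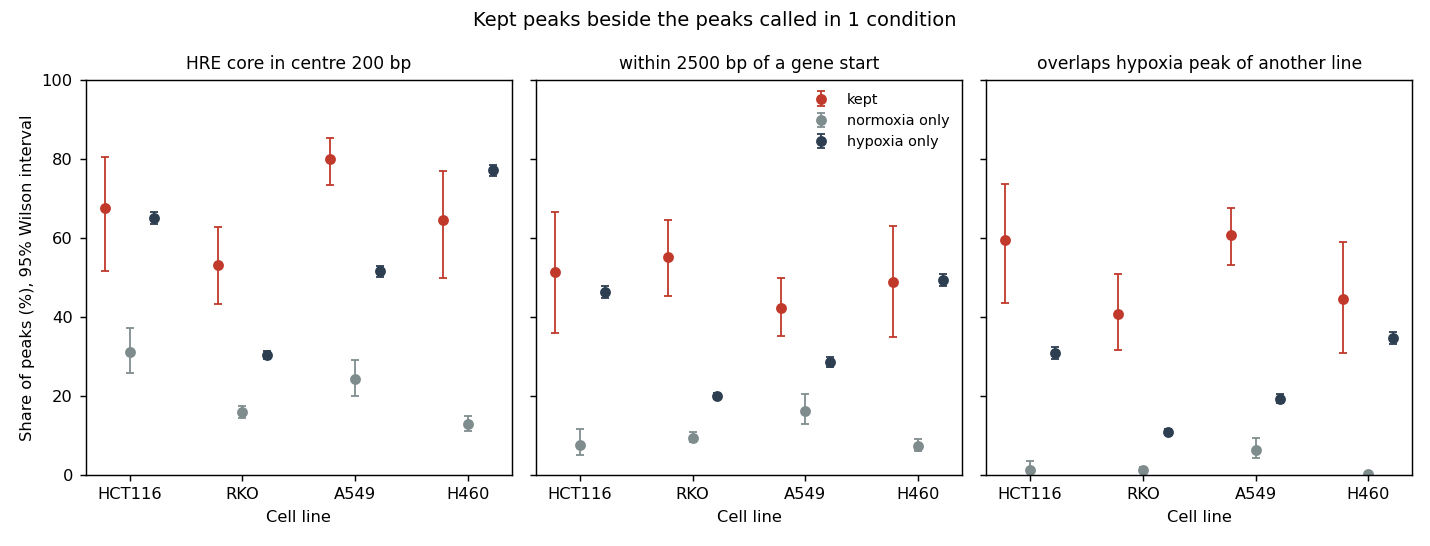
Share of peaks (%) with an HRE core, near a gene start or overlapping a hypoxia peak of another line, by cell line, for kept peaks at their normoxia position (red), normoxia-only peaks (grey) and hypoxia-only peaks (dark), with 95% Wilson intervals for counting error. Kept peaks lie above normoxia-only peaks in all 4 lines and all 3 panels, and in H460 the hypoxia-only share with an HRE core, 77.1%, is above the kept share of 64.4%.

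In each line the median ratio of hypoxia to normoxia was higher at kept peaks with both RCGTG and a hypoxia call elsewhere than at those with neither. With RCGTG and a hypoxia call in another line, the median log2 ratio was 1.70 in A549 (95 peaks), 3.30 in H460 (16), 1.67 in HCT116 (18) and 0.43 in RKO (29). With neither, it was 0.29 in A549 (24 peaks), 1.00 in H460 (12), 0.45 in HCT116 (8) and 0.15 in RKO (35). With 1 of the features the order varied. With RCGTG and no call elsewhere the median was 1.02 in A549 (45 peaks), 1.63 in H460 (13), 0.043 in HCT116 (7) and 0.25 in RKO (23), and with a call elsewhere and no RCGTG it was 0.60 (11), 0.97 (4), 0.71 (4) and 0.10 (11) in that order. Kept peaks called in hypoxia in all 3 other lines had median log2 ratios of 1.94 in A549 (43 peaks), 3.48 in H460 (12), 2.38 in HCT116 (9) and 1.02 in RKO (12), and those called in no other line 0.72 (69), 1.20 (25), 0.36 (15) and 0.17 (58) in the same order. In RKO the medians at 1 and 2 other lines were both 0.17. Of the 46 peaks that were lower in hypoxia, 31 had no hypoxia call in another line and 28 had no RCGTG. The single one called in all 3 other lines was the RKO peak upstream of the netrin receptor gene UNC5B, with 6.43 in normoxia and 5.08 in hypoxia, where H460 had 3.19 and 15.8. These are descriptions, since the ratio comes from the calls that chose the peaks.

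**Figure D4:**
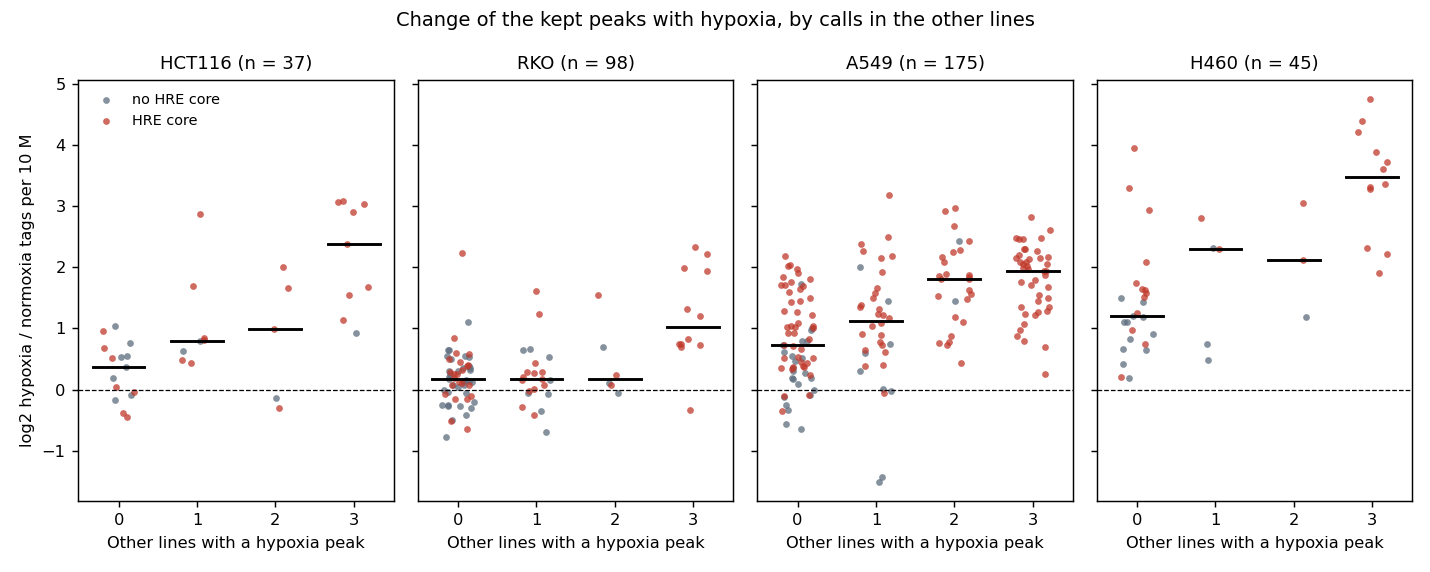
The log2 ratio of hypoxia to normoxia tags per 10 M of each kept peak against the number of other lines with an overlapping hypoxia peak, 1 panel per line, with red points for peaks holding an HRE core and horizontal bars for medians (points are spread sideways for visibility). In the order HCT116, RKO, A549, H460 the medians at 3 other lines, 2.38, 1.02, 1.94 and 3.48, lie above those at 0 other lines, 0.36, 0.17, 0.72 and 1.20.

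Where the HRE core was present, it often lay close to the peak centre, the midpoint of the called interval. Of 248 kept peaks with RCGTG in the window of the hypoxia peak, 161 had the nearest copy within 25 bp of the hypoxia centre, with a median distance of 16 bp. For the normoxia centre it was 148 of 246, with a median of 22 bp. By line, 103 of 140 A549, 14 of 28 H460, 16 of 27 HCT116 and 28 of 53 RKO peaks had it within 25 bp of the hypoxia centre. For the normoxia centre these were 93 of 140, 17 of 29, 11 of 25 and 27 of 52 in that order. No share for other peaks is set beside these. A window with several copies counts by its nearest, and 13 of 37 HCT116, 22 of 98 RKO, 62 of 175 A549 and 11 of 45 H460 kept peaks held 2 or more.

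**Figure D5:**
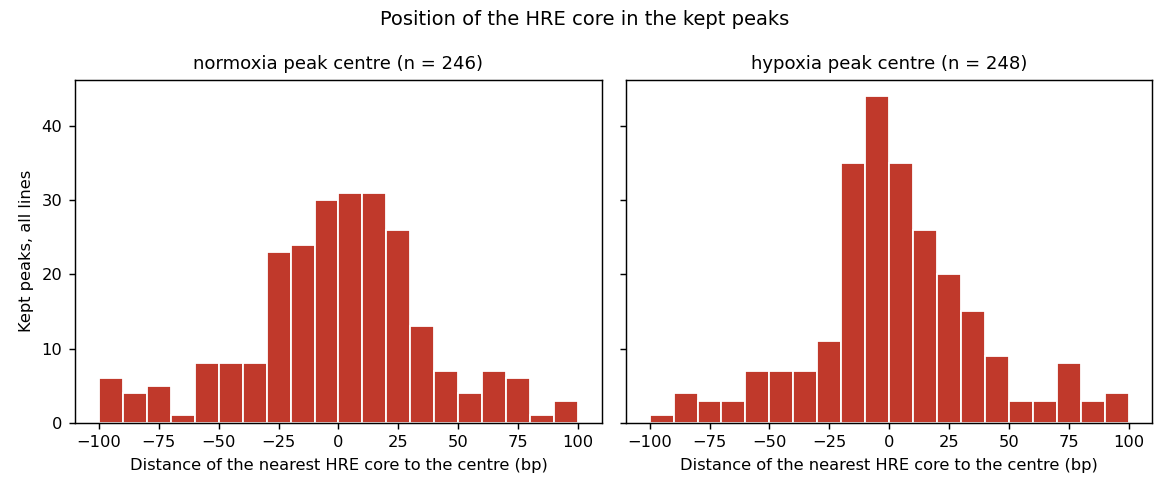
Number of kept peaks of all lines by the distance in bp from the peak centre to the nearest HRE core, in bins of 10 bp, for the 246 normoxia and 248 hypoxia windows that hold it. Counts gather around 0 in both panels, with median distances of 22 and 16 bp.

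The members at the limit of the rule had small overlaps. The smallest overlaps were 2 bp at CDC42EP1 (3.99 and 4.19) and 3 bp at LMX1B-DT in RKO (4.21 and 3.14), 7 bp at PARD3 (3.64 and 4.51) and 10 bp at PTMA in A549 (4.12 and 6.23), 7 bp at FTL (4.32 and 7.68) and 14 bp at SEMA3C in H460 (2.44 and 6.87), and 18 bp at AMPD3 in HCT116 (3.90 and 28.5). Just outside, RKO peaks at MARCHF5 (3.33 and 2.54) and FTL (4.21 and 7.18) had gaps of 5 and 7 bp, and an A549 peak at ENSG00000231830 (8.24 and 10.5) had a gap of 6 bp. In the other lines the smallest gaps were 104 bp at CFD in HCT116 (4.48 and 4.91) and 53 bp at TRD-AS1 in H460 (3.57 and 6.47). A hypoxia peak lay within 500 bp of 3, 56, 20 and 8 normoxia-only peaks in HCT116, RKO, A549 and H460. When at least 50% of both peaks had to overlap, 299 members remained, 165 in A549, 35 in H460, 31 in HCT116 and 68 in RKO.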

How the data were processed

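Per the labels and methods, the authors aligned reads to GRCh37 (hg19) with Bowtie2, processed them with SAMtools and Picard, pooled both replicates and ran HOMER findPeaks against the line's input. Per the file headers, the required fold ratio over input was 14 for H460, 13 for A549, 7 for HCT116 and 6 for RKO, beside a local fold of 3 and a false discovery rate of 0.001. The deposited signal, the normalized tag count, is tags in a peak per 10 M library tags, which scales for depth but not for immunoprecipitation efficiency or width. The weakest peaks held 11 to 20 tags, and a deposited 0.5 stands for no input tag. The deposited focus ratio, a fraction between 0 and 1, was read only to look for lines that stand apart.

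Groups followed sample titles. Overlaps, motifs in 200 bp at the centre and gene starts (GENCODE release 44 on GRCh37, protein-coding and lncRNA) were computed in Python 3.11.15 with pandas 2.3.3, scipy 1.17.1 and pysam 0.24.0. Unscaled tags were recovered from the signal and the header totals. Log2 ratios carry exact conditional binomial intervals, shares Wilson intervals, both at 95% and for counting error only. Because the replicates were merged, the line was the unit of the sign-flip tests, with Benjamini-Hochberg adjustment. Scripts were tested on simulated data. The members, gene lists and motifs were chosen with earlier results of these data known.

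Loci were named by rule: all kept in 4 lines, up to 5 each kept in 3 and 2 lines by mean normoxia percentile, the 3 strongest and the 2 lowest and highest ratios per line, list genes, and peaks at the rule's limit. NFE2L2, ENO1 among recurrent loci, UNC5B, TTC21B, the MIR210 region, GTF2IRD2 and the hexamers TACGTG and GACGTG were chosen after their values were seen. Alternatives were stricter overlaps and folds, other windows and start distances, lists split at their median level, each line left out, and, chosen after seeing the data, chromosome Y and local folds over 100 left out and joining within 10 kb. One locus that the rule names is not reported here. Reads of single samples were not used here.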

Additional observations from a re-analysis of the deposited data

Results flagged for a closer look

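H460 stood apart in the share of kept peaks without an input tag, 75.6% (34 of 45), where HCT116 had 13.5%, RKO 15.3% and A549 16%. The gap to the nearest line exceeded Dixon's 95% limit for 4 values. Of 11 measures checked in this way 1 was flagged, and chance alone flags about 5%. Input labels, thresholds and depth differ between the lines, and the source fields of the RKO, A549 and H460 inputs all name HCT116. Their part was not tested.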

How the results depend on the processing

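No paired analysis was possible because the deposited lists were called on pooled replicates, and leaving out a replicate was not possible for the same reason. A local fold of at least 6 left 232 of the 355 members. The HCT116 median log2 ratio, 0.79 as deposited, was 1.08 with a fold over input of at least 14 or a local fold of at least 6 (12 members under either), and 1.15 per base pair of peak width. The RKO median log2 ratio reversed to -0.019 per base pair. The mean RCGTG difference between kept and hypoxia-only peaks reversed to -1.48 points among peaks above their list's median level (two-sided p = 1 in the exact permutation test over lines). In each case the cause was not tested. The number of loci kept in 2 or more lines, 21, ran from 15 to 27 over 5 alternatives. The RCGTG difference from normoxia-only peaks stayed between 38.1 and 53.6 points over 10 alternatives, the proximal difference between 32.6 and 51.1 over 11, the overlap with other lines between 46.0 and 59.8 over 9, and the GC difference between 11.3 and 14.5 over 10, all higher in kept peaks. With 3 lines the smallest p of the exact test is 0.25, so leaving out a line says nothing on significance. Depth limits single ratios, since the median kept peak held 25 normoxia tags.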
